A study of Mus musculus with 6 samples.

Results

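The interleukin-6 family is a group of cytokines and receptors that share the signalling subunit gp130, encoded by Il6st. It was examined here through 10 genes: the ligands Il6, Il11, Lif and Osm, the receptor chains Il6ra, Il11ra1, Lifr and Osmr, the shared chain Il6st and the transcription factor Stat3. Members were the non-control probes whose gene name in the scanner files is one of these, which gave 13 of 55681 probes and 10 of 34797 gene names. Gene expression had been measured in aortic arteries of C57BL/6 fetuses on 1-colour Agilent arrays, with the aim, per the design text, of describing direct responses of the fetal vasculature to a NOD1 ligand. NOD1 senses pieces of bacterial cell wall inside the cell. Dams lacking Nod1 (Nod1 -/-) were mated with Nod1 +/- males and given 500 µg of FK565, a synthetic NOD1 ligand, under the skin at E18.5, and vessels were taken 6 h later. The compared groups were 3 Nod1 +/- and 3 Nod1 -/- littermate fetuses. All 6 came from FK565-treated dams that themselves carried no working Nod1, and no vessel from an untreated dam was analysed here. The labels do not say whether an array held a single fetus, and the p-values given reflect only how much these samples vary.

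In this family a ligand first binds a receptor chain that gives specificity, such as the IL-6 receptor (Il6ra) or the IL-11 receptor (Il11ra1), and the pair then engages gp130. LIF signals through the LIF receptor (Lifr) joined to gp130, and oncostatin M (Osm) in the mouse signals chiefly through OSMR (Osmr) joined to gp130. Receptor-bound JAK kinases then phosphorylate STAT3, which enters the nucleus and drives acute-phase, survival and feedback genes, among them Socs3, an inhibitor of gp130 itself. Endothelium and smooth muscle of the vessel wall can both produce IL-6 during inflammation, and IL-6 with its soluble receptor can act on cells that lack Il6ra.

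The promoter stretches of the 4 members with the smallest p in the genotype comparison are shown first, because these genes were all higher in Nod1 +/- vessels. Each is the 250 bases before the RefSeq start of the gene in GRCm38.p6, read 5′ to 3′ on the gene's strand. Of the 10 members, 9 had an entry in the promoter table. Capitals mark matches, on either strand, to any of 5 motifs searched: NF-kB (10 letters, by name), STAT (TTCNNNGAA), C/EBP (TTGCNNAA), the CRE half-site (TGACGT) and AP-1 (TGANTCA).
Il6, chr5:30012864-30013113, plus strand: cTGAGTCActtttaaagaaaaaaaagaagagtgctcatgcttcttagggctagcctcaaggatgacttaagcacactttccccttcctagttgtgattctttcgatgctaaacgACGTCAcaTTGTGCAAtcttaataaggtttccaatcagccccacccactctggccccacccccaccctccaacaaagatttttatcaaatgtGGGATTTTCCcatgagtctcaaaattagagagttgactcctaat
Osmr, chr15:6874314-6874563, minus strand: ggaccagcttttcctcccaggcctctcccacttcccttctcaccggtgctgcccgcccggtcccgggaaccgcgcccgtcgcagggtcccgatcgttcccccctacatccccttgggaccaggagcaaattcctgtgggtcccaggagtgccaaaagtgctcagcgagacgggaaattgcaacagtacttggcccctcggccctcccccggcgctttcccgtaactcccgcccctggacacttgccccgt
Il6st, chr13:112463820-112464069, plus strand: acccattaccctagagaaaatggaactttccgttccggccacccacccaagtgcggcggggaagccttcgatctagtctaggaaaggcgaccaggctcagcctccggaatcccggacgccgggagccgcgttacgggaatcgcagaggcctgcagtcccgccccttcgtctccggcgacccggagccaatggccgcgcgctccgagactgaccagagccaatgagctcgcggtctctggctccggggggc
Stat3, chr11:100939541-100939790, minus strand: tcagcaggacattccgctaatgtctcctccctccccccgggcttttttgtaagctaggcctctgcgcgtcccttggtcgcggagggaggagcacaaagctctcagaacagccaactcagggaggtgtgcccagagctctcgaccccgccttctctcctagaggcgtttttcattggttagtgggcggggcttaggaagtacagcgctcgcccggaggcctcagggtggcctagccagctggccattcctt

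The Il6 stretch held a match to 4 of the 5 motifs. The NF-kB match, GGGATTTTCC, began 44 bases before the start, and the C/EBP match, TTGTGCAA as printed with the motif on the other strand, began 128 bases before it. The CRE half-site, ACGTCA as printed and also on the other strand, began 136 bases before the start and the AP-1 match, TGAGTCA, 249 bases before it. The stretches of Osmr, Il6st and Stat3 held no match to any of the 5. Among the other members, the stretch of Lif, which was too dim to test, held an NF-kB and an AP-1 match, and a stretch of Il11, which was not called, held an AP-1 match. Among all 32851 promoter stretches of the same length, 7.25% held the NF-kB motif, 7.02% the STAT motif, 9.56% the C/EBP motif, 6.47% the CRE half-site and 6.75% the AP-1 motif, so each motif alone is an infrequent match. These matches describe letters in a 250-base window and do not show that a factor was bound.

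Across the family, the cytokine Il6, the receptor chains Osmr and Il6st, and Stat3 were higher in Nod1 +/- aortas, with fold differences from 2.01 (Il6st) to 15.6 (Il6). The genotypes overlapped in Il6ra, and Il11ra1 was the member that was lower. Of the 8 members that could be tested, 5 were higher and 1 lower by limma's moderated test (adjusted p under 0.05 over 21478 genes), where 7.66% of all genes tested were called higher and 11% lower. Levels are given below as log2 signal minus the array's 75th percentile, so that 0 is that percentile, and differences are Nod1 +/- minus Nod1 -/- on that log2 scale. The median difference of the 8 tested members was 0.68, beside -0.10 over all genes. Every tested member was well above background on at least 2 arrays of each genotype. Lif and Osm cleared background on 0 of 6 arrays and were left out of the test.

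**Figure D1:**
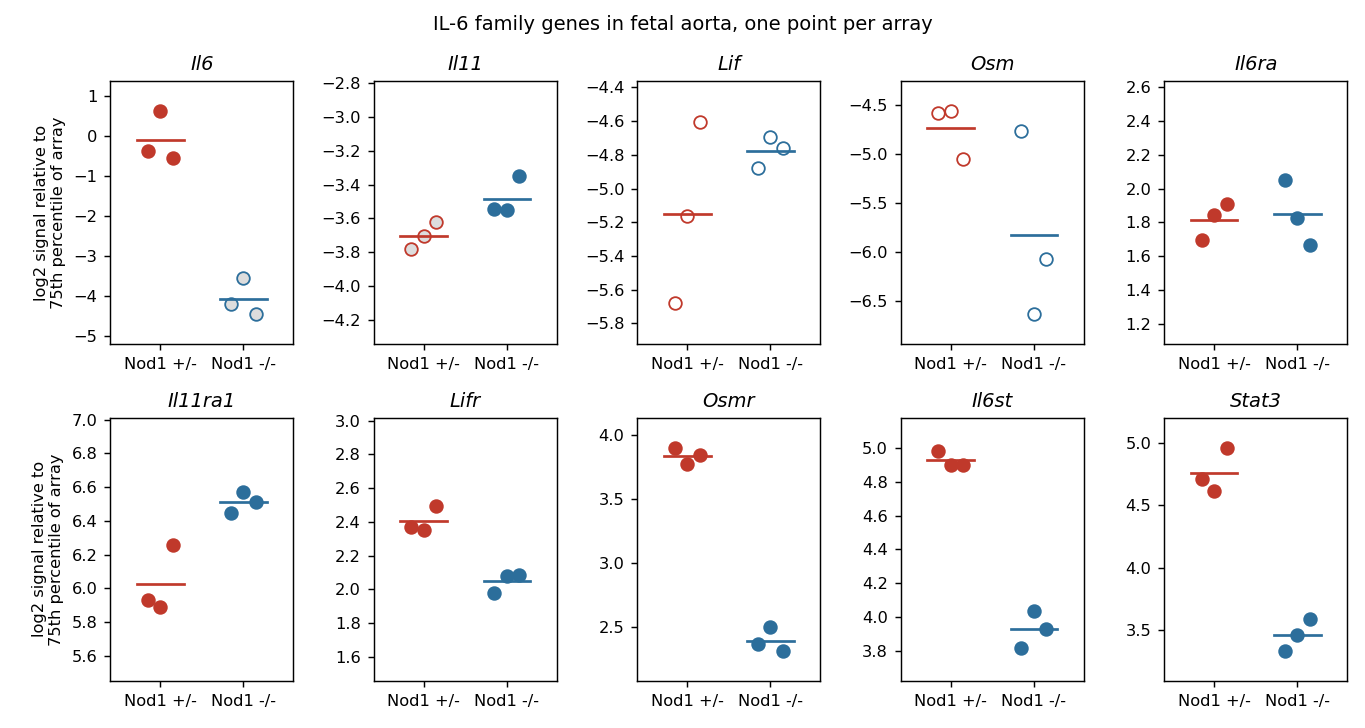
Log2 signal relative to the array's 75th percentile for the 10 genes, with 1 point per array, Nod1 +/- in red and Nod1 -/- in blue, a line at the mean of 3 arrays and an axis of its own for each gene. Filled coloured points mean that all 3 arrays of a genotype were well above background, grey points that 2 were, and open points that none was. Il6, Lifr, Osmr, Il6st and Stat3 sit higher in every Nod1 +/- array than in any Nod1 -/- array, Il11 and Il11ra1 sit lower, and the genotypes of Il6ra, Lif and Osm overlap. Of all genes tested, 16.3% were higher and 26.1% lower without overlap, so such separation is common.

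The arrays came from whole vessels, so fewer cells of a type and less RNA per cell cannot be told apart, and marker genes of the cells a vessel can hold were read beside the family. Smooth-muscle markers were measured on all arrays and none of 8 passed limma's test (0 also at an unadjusted p under 0.05), with a summed linear level of 1410 to 1500 times the 75th percentile in Nod1 +/- and 1500 to 1590 in Nod1 -/- vessels. Of 10 neutrophil markers 7 were higher and none lower (8 and 0 unadjusted), beside 7.66% of all genes tested that were called higher. The markers had a median difference of 3.07 and summed levels of 273 to 294 against 157 to 213. The brightest of them, Csf3r, the G-CSF receptor gene, ran the other way without passing (difference -0.44) and made up most of the Nod1 -/- sums. Without Csf3r the other 9 summed to 126 to 205 in Nod1 +/- and 16.5 to 21.7 in Nod1 -/- vessels. Cxcr2, a chemokine receptor gene of this marker list, was at least 12.4-fold higher. It was well above background on 3 of 3 Nod1 +/- and 0 of 3 Nod1 -/- arrays, so it entered the test, and the count of 7, through the genotype where it is high. Ly6g, another neutrophil marker of the list, differed by 0.89 without passing (limma adjusted p = 0.101). The 7 neutrophil markers were thus higher in the same arrays as Il6, Osmr, Il6st, Stat3, Socs3 and the STAT3-responsive genes, and their part in those differences was not tested.

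In the other marker lists no gene passed upward. The counts of lower markers stand beside 11% of all genes tested that were called lower. Of 10 macrophage markers 2 were lower, with summed levels of 89.7 to 106 against 96.6 to 181. Of 8 endothelial markers 2 were lower (116 to 141 against 130 to 170), and of 8 fibroblast markers 4 were lower (538 to 578 against 740 to 813). These counts rest on the brightest probe of each gene. A second probe of Vwf, an endothelial marker not called, was lower (-1.26; limma adjusted p = 0.00325 over all kept probes). For the lower macrophage markers, the second Cx3cr1 probe passed too (-2.29; 0.00227), but the other Csf1r probes did not (-0.73 and -0.31; 0.169 and 0.14). At an unadjusted p under 0.05 limma gave 1 macrophage marker, 1 endothelial marker and no fibroblast marker as higher. The other 4 fibroblast markers did not pass, with differences of 0.02 for Col1a1, 0.16 for Pdgfra, 0.09 for Fbln1 and -0.31 for Dpt. Il11ra1 and Ctf1 were lower in the same arrays as these 2 macrophage, 2 endothelial and 4 fibroblast markers, and the part of such cells was not tested. No tested marker of T cells (3), skeletal muscle (6), Schwann cells and sympathetic neurons (7) or hepatocytes (8) passed limma's test; unadjusted, 1 T-cell marker was higher and 1 Schwann marker lower. Nod1 +/- replicate 1 stood apart in skeletal-muscle markers, at 593 against 24.9 to 47.7 on the other 5 arrays, and Nod1 -/- replicate 1 in Schwann and sympathetic markers, at 42.2 against 5.07 to 14.1. Hepatocyte markers summed to 45.5 to 109 in Nod1 +/- and 44.1 to 179 in Nod1 -/- vessels.

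Among the ligands, Il6 stood out. Il6 encodes the pro-inflammatory cytokine that gives the family its name, and its probe lies on chromosome 5 at 30346367 to 30346426 of mm9, plus strand. In replicate order, Il6 read -0.39, 0.61 and -0.56 in Nod1 +/- and -4.20, -3.57 and -4.45 in Nod1 -/- vessels. Replicate 2 was the highest array in each genotype, and the lowest Nod1 +/- array was still far above the highest Nod1 -/- array. The means were -0.11 ± 0.63 and -4.07 ± 0.46 (SD, n = 3), a 15.6-fold difference (log2 3.96, standard error 0.37, 95% confidence interval 3.06 to 4.86; limma adjusted p = 0.00238). In Nod1 -/- vessels Il6 was near the limit of the array, well above background on 2 of the 3. With the normexp background correction, which adds an offset of 50 to every signal, the difference was 2.32 and still past the threshold.

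Il11, a cytokine linked to fibrosis and blood-cell formation, was dim. Its probe on chromosome 7 read -3.78, -3.70 and -3.62 in Nod1 +/- and -3.54, -3.55 and -3.35 in Nod1 -/- vessels. The arrays did not overlap, being lower in Nod1 +/-, but the difference of -0.22 did not pass (95% confidence interval -0.47 to 0.03; limma adjusted p = 0.189). Genotypes that do not overlap were common: 26.1% of all genes were lower in this way and 16.3% higher.

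The other ligands of the family were at or below the detection limit. Lif, which maintains stem cells and is released by injured tissue, read -5.68, -5.16 and -4.61 in Nod1 +/- and -4.88, -4.70 and -4.76 in Nod1 -/- vessels. Osm, a cytokine made mainly by myeloid cells and T cells, read -4.58, -4.57 and -5.05 against -4.77, -6.63 and -6.07. The lowest signal of any probe well above background lay between -4.70 and -3.89 on the 6 arrays, so these readings carry no order and no fold is given. With the filter on dim probes removed, neither passed (limma adjusted p = 0.434 for Lif and 0.277 for Osm over 34743 genes). A change in their transcripts was therefore not detectable by these probes, which does not show that they were absent.

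Of the receptor chains, Osmr, the chain that gives specificity for oncostatin M, had the smallest p of the 8 tested members. Its probe (chromosome 15, 6763686 to 6763745 of mm9, minus strand) read 3.89, 3.77 and 3.84 in Nod1 +/- and 2.37, 2.50 and 2.32 in Nod1 -/- vessels. Arrays of a genotype lay close together, and the gap between genotypes was several times their spread. The means of 3.83 ± 0.06 and 2.40 ± 0.09 (SD, n = 3) differed 2.71-fold (log2 1.44, standard error 0.10; limma adjusted p = 0.00111).

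Il6st encodes gp130, the chain on which each of the 4 ligands described here depends. Its probe (chromosome 13, 113296586 to 113296645 of mm9, plus strand) read 4.99, 4.90 and 4.90 in Nod1 +/- and 3.82, 4.04 and 3.93 in Nod1 -/- vessels. The 3 Nod1 +/- arrays were nearly equal, and all were above every Nod1 -/- array. The means of 4.93 ± 0.05 and 3.93 ± 0.11 (SD, n = 3) differed 2.01-fold (log2 1.004, standard error 0.10; limma adjusted p = 0.00274). With the first replicate of both genotypes left out, Il6st kept a difference of 0.92 but no longer passed (limma adjusted p = 0.0613).

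Il6ra, the chain that binds IL-6, did not share this difference. It read 1.69, 1.84 and 1.91 in Nod1 +/- and 2.05, 1.83 and 1.66 in Nod1 -/- vessels, and the genotypes overlapped fully. The difference was -0.03 (95% confidence interval -0.35 to 0.29; limma adjusted p = 0.882), an interval that does not reach the difference of Il6st in either direction. Its sign turned under 6 of the alternatives, including median scaling (0.07).

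Il11ra1, the chain that binds IL-11, was lower in Nod1 +/- vessels, and its call was weak. Its probe (chromosome 4, 41716285 to 41716344 of mm9, plus strand) read 5.93, 5.89 and 6.26 in Nod1 +/- and 6.45, 6.57 and 6.51 in Nod1 -/- vessels. The Nod1 -/- arrays were close together, and Nod1 +/- replicate 3 lay nearest to them. Il11ra1 fell by 0.49 (standard error 0.13; limma adjusted p = 0.0478). The call was lost in 13 of 18 alternatives, with adjusted p = 0.135, 0.132, 0.108, 0.145 and 0.0967 without Nod1 +/- replicate 1, Nod1 +/- replicate 2, Nod1 -/- replicate 1, Nod1 -/- replicate 2 and Nod1 -/- replicate 3. It was also lost with other scaling: limma adjusted p = 0.0979 with quantile scaling, 0.151 with median scaling and 0.0994 with the authors' value table. The mouse has a near-identical gene, Il11ra2, for which no probe was analysed here. Whether the Il11ra1 probe also reads Il11ra2 was not tested, so a part of Il11ra2 in this signal cannot be told.

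Lifr was read by 3 probes that did not move alike, and the first 30 of the 60 bases of each are shown so that they can be told apart. They are ordered along chromosome 15 of mm9 on the plus strand, starting at 7135072, 7141150 and 7147319, and no base is marked.
Lifr variant 2 probe: taaaaacttggaaatgtatccaggcctaac
Lifr middle probe: agaacaaaccaaatgactaaccaggtcacc
Lifr brightest probe: catagatgatgtaaatagcctaagacactg

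The brightest probe, which the files assign to transcript variant 1 and which stood for the gene, read 2.37, 2.35 and 2.49 in Nod1 +/- and 1.98, 2.08 and 2.08 in Nod1 -/- vessels. Every Nod1 +/- array was higher, by 0.36 on average (standard error 0.09; limma adjusted p = 0.048). This call was lost in 13 of 18 alternatives, with adjusted p between 0.0809 and 0.153 without any single array. The middle probe, also of variant 1, read -0.96, -0.87 and -1.08 against -1.55, -1.74 and -1.73, a difference of 0.71 (standard error 0.11; limma adjusted p = 0.0124 over all 30166 kept probes). In that fit over probes, 6 of the 11 kept probes of the family passed, beside 15.9% of all kept probes.

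The probe of Lifr transcript variant 2 ran the other way. It read -0.99, -0.79 and -0.85 in Nod1 +/- and -0.02, -0.30 and -0.74 in Nod1 -/- vessels. All 3 Nod1 -/- arrays were higher, with replicate 3 close to the Nod1 +/- arrays. Its difference of -0.52 did not pass (standard error 0.19; limma adjusted p = 0.119 over all kept probes). Set against the brightest and the middle probe within each array, the variant 2 probe was lower in Nod1 +/- vessels by 0.88 and 1.23 (exact two-sided permutation p = 0.1 for each, the smallest that 3 against 3 can give). This pair of ratios was chosen after the values were seen, so it is a description of unequal change between parts of Lifr.

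**Figure D2:**
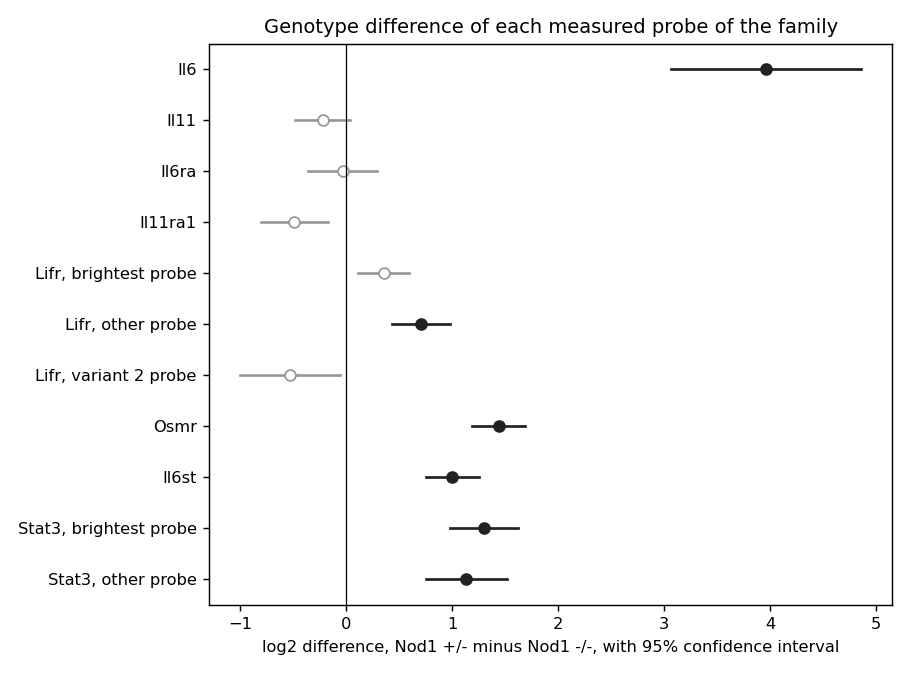
Log2 difference, Nod1 +/- minus Nod1 -/-, of each of the 11 measured probes of the family, with its 95% confidence interval from limma's fit over all kept probes. Filled points passed an adjusted p of 0.05 in that fit, in which Il11ra1 (0.0548) and the brightest Lifr probe (0.0579) did not. The 3 Lifr probes lie on both sides of 0, while both Stat3 probes lie above 1.

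Stat3, the main transcription factor downstream of gp130 and itself one of its targets, was higher by both of its probes. The brightest, printed 10 times on the array (chromosome 11, 100749598 to 100749657 of mm9, minus strand), read 4.71, 4.62 and 4.96 in Nod1 +/- and 3.34, 3.46 and 3.59 in Nod1 -/- vessels. No array of either genotype came near the other genotype. The means of 4.76 ± 0.18 and 3.46 ± 0.12 (SD, n = 3) differed 2.46-fold (log2 1.30, standard error 0.13; limma adjusted p = 0.00276). The dimmer probe read -1.89, -1.41 and -1.67 against -2.93, -2.64 and -2.81, a difference of 1.14 (limma adjusted p = 0.00832 over all kept probes).

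The receptor chains were next compared within each array, where scaling between arrays plays no part. Relative to Il6st, Il6ra was lower by 1.04, Il11ra1 by 1.49 and Lifr by 0.65 in Nod1 +/- vessels, and Osmr was higher by 0.44. The log2 ratio of Osmr to Il6st was -1.09, -1.13 and -1.06 in Nod1 +/- and -1.45, -1.54 and -1.61 in Nod1 -/- arrays, and the ratio of Osmr to Lifr was higher by 1.08. All 5 ratios separated the genotypes without overlap, and each had an exact two-sided permutation p = 0.1 (0.1 after Benjamini-Hochberg adjustment over 5 ratios), the smallest the design allows, so none can pass 0.05. The ratios share genes, and all but Osmr over Lifr hold Il6st, which itself differed by 1.004. They are therefore not 5 separate results. A ratio shows that 2 chains changed unequally, not which of them changed.

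**Figure D3:**
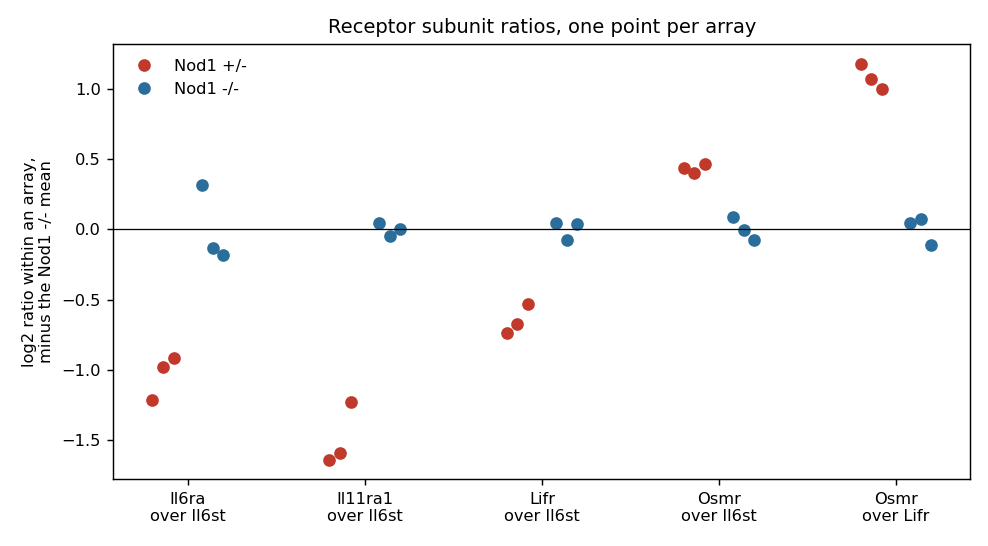
Log2 ratio of a pair of receptor genes within each array, minus the mean ratio of the 3 Nod1 -/- arrays, for the 5 pairs, with Nod1 +/- in red and Nod1 -/- in blue. The 3 pairs of Il6ra, Il11ra1 and Lifr over Il6st lie lower in Nod1 +/- arrays and the 2 pairs with Osmr on top lie higher, with no overlap in any pair.

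Genes around the family, which modify or extend its signalling, were counted next. There were 30 tested genes in 3 lists (other ligands and receptors, JAK-STAT transducers, negative regulators with shedding enzymes). Of these, 7 were higher, 2 were lower and 21 did not pass, with a median difference of 0.12. Over all genes tested, 7.66% were called higher and 11% lower. The count of 9 fell to 5 without Nod1 +/- replicate 2 and to 5 without Nod1 -/- replicate 2. Among 9 tested further ligands and receptors, Il27ra, a gp130 partner that binds IL-27, was higher, and Ctf1, the ligand cardiotrophin-1, and Il31ra were lower. Il27ra read -1.48, -0.82 and -1.16 in Nod1 +/- and -2.22, -2.02 and -2.60 in Nod1 -/- vessels (difference 1.13; limma adjusted p = 0.0205). Its call was lost without Nod1 +/- replicate 2 (0.0533) or Nod1 -/- replicate 1 (0.0605).

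Ctf1 read 0.82, 0.85 and 0.97 against 1.54, 1.70 and 1.59, with every Nod1 +/- array lower (difference -0.73; limma adjusted p = 0.00706). Its call was lost when slide row was a block (0.0664) and with both first replicates left out (0.0965). Il31ra, a chain that pairs with OSMR to bind IL-31, fell by 0.81 close to the detection limit (limma adjusted p = 0.0185), and passed in 8 of 17 alternatives. Without Nod1 +/- replicate 1, Nod1 +/- replicate 2, Nod1 -/- replicate 1 or Nod1 -/- replicate 2 its adjusted p was 0.0599, 0.0616, 0.059 or 0.0508. Cntfr, the CNTF receptor chain, differed by 0.72 and did not pass (limma adjusted p = 0.0682), and its other kept probe differed by -0.08. It was picked out after its values were seen, as were Pias1, the other genes named as not passing and the fibrinogen genes. Ctf2 and Il31 cleared background on 0 of 6 arrays.

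Of 10 JAK-STAT transducers, 3 were higher and none lower by limma (4 and 1 at an unadjusted p under 0.05), with a median of 0.41. The shares called by limma over all genes tested were 7.66% higher and 11% lower. Jak1, the kinase that gp130 signalling relies on most, read 4.41, 4.34 and 4.16 in Nod1 +/- and 3.35, 3.44 and 3.16 in Nod1 -/- vessels, a 1.97-fold difference (log2 0.98; limma adjusted p = 0.00555). Stat5a was higher by 1.11 (adjusted p = 0.00419) and the kinase gene Jak2 by 0.45 (adjusted p = 0.0223), the latter lost without any single array except Nod1 +/- replicate 3 (adjusted p between 0.0542 and 0.0832). With both first replicates left out, Jak1 (0.079) and Stat5a (0.0692) no longer passed. The adaptor and phosphatase genes Gab1, Grb2, Ptpn11 and Shc1 did not pass.

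Among negative regulators, Socs3 showed the clearest difference. Of 11 tested, 3 were higher and none lower by limma (4 and 1 unadjusted), with a median of 0.07. Again, 7.66% of all genes tested were called higher and 11% lower. Socs3, which binds gp130 and blocks its kinases, read 3.41, 3.98 and 3.75 in Nod1 +/- and 1.61, 1.29 and 1.69 in Nod1 -/- vessels, a 4.55-fold difference (log2 2.19, standard error 0.18; limma adjusted p = 0.00177). The phosphatase gene Ptpn1 was higher by 0.74 (adjusted p = 0.0137), a call lost without Nod1 -/- replicate 2 (0.06), and Cish by 0.46 (adjusted p = 0.0417), a call lost without any single array (0.0503 to 0.134). Socs1 and Socs2, relatives of Socs3, differed by 0.02 and 0.07 and did not pass. Pias1, a SUMO ligase that inhibits STAT signalling, read lower by a difference of -0.38 without passing (adjusted p = 0.0574), and the sheddases Adam10 and Adam17, which release soluble receptors such as that for IL-6, differed by -0.03 and -0.26 and did not pass.

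STAT3-responsive genes were higher in large part. Of 30 tested, 21 were higher and none lower by limma, where 7.66% of all genes tested were called higher and 11% lower. At an unadjusted p under 0.05 limma gave 24 as higher and 1 as lower. The median difference was 1.31 beside -0.10 over all genes, and Socs3 counts here too. Junb, 1 of the 21, was well above background on 3 of 3 Nod1 +/- and 1 of 3 Nod1 -/- arrays. It thus entered the test through the genotype where it is high. The list was chosen with earlier results of these data known, so its counts are a description. The 4 with the smallest p were Icam1, a leukocyte adhesion molecule (log2 4.04; limma adjusted p = 0.000243), Timp1, an inhibitor of matrix metalloproteinases (1.92; 0.000732), Il4ra, the IL-4 receptor chain (2.58; 0.000801), and Saa3, an acute-phase serum amyloid (8.51; 0.00111). Timp1 read 4.82, 4.91 and 4.68 in Nod1 +/- and 2.91, 2.97 and 2.75 in Nod1 -/- vessels. A second Il4ra probe differed by 1.24 against 2.58 for the probe used. Several genes of this list, Icam1 and Saa3 among them, also answer to NF-kB, and the list does not separate these inputs. The fibrinogen genes Fga, Fgb and Fgg, textbook targets of IL-6 in liver, differed by 0.04, 1.07 and 1.05 with wide errors and did not pass (limma adjusted p = 0.955, 0.48 and 0.494). A second Fga probe differed by 1.21 and did not pass either. Fgb read 3.73, 3.08 and 1.84 in Nod1 +/- and -0.33, 3.45 and 2.31 in Nod1 -/- vessels. On the same arrays hepatocyte markers summed to 109, 83.9 and 45.5 and to 44.1, 179 and 89. The part of liver tissue in the fibrinogen readings was not tested.

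**Figure D4:**
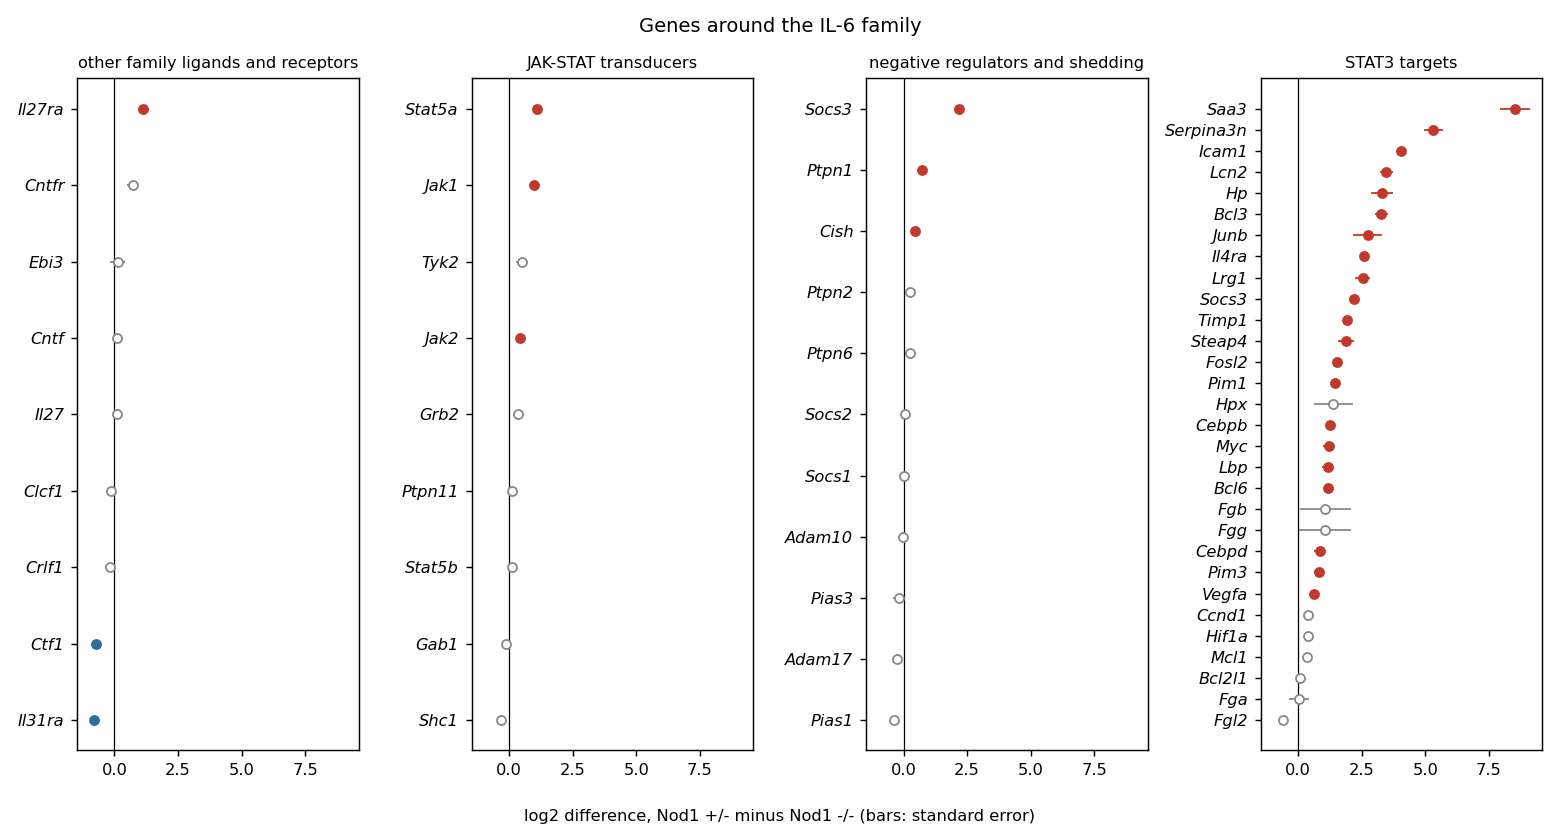
Log2 difference, Nod1 +/- minus Nod1 -/-, of the tested genes of the 4 lists, 1 transducer left out, with its standard error, red where higher and blue where lower past an adjusted p of 0.05 and open where not. Most points of the first 3 lists lie near 0, with Socs3 at 2.19, whereas 21 of the 30 STAT3-responsive genes are filled and to the right of 0.

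Leaving out the 2 arrays that stood apart in muscle and nerve markers, a choice made after the values were seen, kept the differences of Il6 (4.04), Osmr (1.40) and Stat3 (1.26) past the threshold (limma adjusted p = 0.034, 0.0319 and 0.0499). The members called then numbered 3 instead of 6, and the STAT3-responsive genes called 13 instead of 21. The 75th percentile of signal was 371.7 to 439.5 and the share of probes well above background 48.6% to 58.4% over the 6 arrays, whose small number limits the precision. The Nod1 probe lay at 3.38 ± 0.35 and 3.25 ± 0.09 (SD, n = 3; limma adjusted p = 0.648). The deleted part of Nod1 is not given in the sources used here, so this probe checks no label. Nod1 -/- replicates 1 and 2 lay in another row of the slide than the other 4 arrays. Within the shared row, against Nod1 -/- replicate 3 alone, the differences were 4.34 for Il6, 1.52 for Osmr, 1.003 for Il6st and 1.18 for Stat3.

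**Figure D5:**
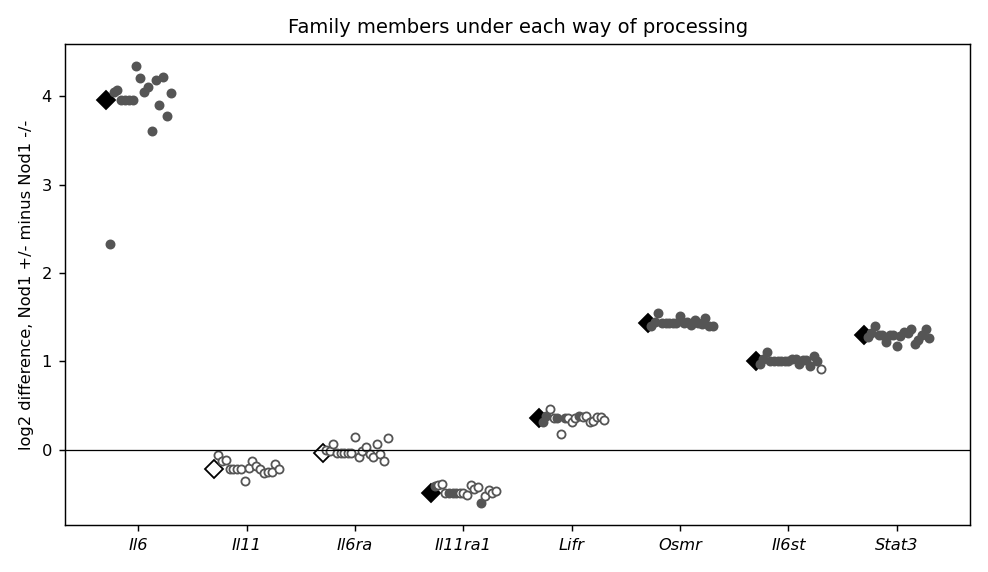
Log2 difference of the 8 tested members under each way of processing the arrays, with the values reported above as diamonds, alternatives as circles, and filled symbols where the adjusted p was under 0.05. Osmr and Stat3 stay between 1.18 and 1.54 and filled throughout, Il6 is lowest at 2.32 with the normexp correction, and Il11ra1 and Lifr are mostly open.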

How the data were processed

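Total RNA of 6 aortic-artery samples had been hybridised to 1-colour Agilent arrays, all on 1 slide with 1 scan time. Each spot's intensity in the deposited scanner files had its background subtracted by Agilent Feature Extraction, whose release is 10.7.1.1 in the file headers and 9.5.1.1 in the submitters' processing notes. Probe positions are mm9, per the file headers. The authors' deposited value table, of intensity too, has equal column medians (33.4). How they were made equal is not given in the sources used here, and it served as an alternative.

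Outlier-flagged and control spots were dropped, spots of a probe averaged, and log2 values of the deposited signals set relative to the 75th percentile of non-control probes on that array. Of 55681 probes, 134 were incomplete over the arrays and dropped. Probes well above background on at least 3 of 6 arrays were kept (30166), and a gene was read by its brightest kept probe (21478 genes). Genotypes were compared with limma 3.58.1 (lmFit, eBayes; R 4.3.3; files read with the data.table package, version 1.17.8), Benjamini-Hochberg adjusted over all genes, threshold 0.05; the script was tested on simulated data. "At least N-fold" sets the brighter mean against, per array, the higher of the dim probe's signal and the lowest signal well above background. Plots used matplotlib 3.10.9 and numpy 2.4.6. Promoter sequences are RefSeq's (GRCm38.p6).

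The members and gene lists were chosen with earlier results of these data known. Named were all members, Nod1, and per list and direction up to 4 called genes with the smallest p, plus, for the 2 members with the smallest p, the 3 genes most correlated with each. Genes named as not passing, Junb and single cell-type markers fall outside this rule and were chosen after their values were seen. Xist, used as a covariate, also falls outside it. A gene of the transducer list is counted but not reported here by name. Alternatives changed background correction, scaling, filter, probe choice, prior, blocks, covariate and the arrays used.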

Additional observations from a re-analysis of the deposited data

How the results depend on the processing

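Il6 (17 of 17 alternatives), Osmr and Stat3 (18 of 18) kept their direction and their side of the threshold throughout, at 2.32 to 4.34, 1.40 to 1.54 and 1.18 to 1.40. Il6 has 1 alternative fewer because a stricter filter, well above background on all 6 arrays, leaves it out. Il6st lost its call with both first replicates left out (0.0613), and Il11ra1 and Lifr lost theirs in 13 of 18 alternatives each, reaching adjusted p = 0.253 and 0.296. The 6 called members became 3 with both first replicates left out and 4 to 5 with single arrays left out. The 9 called pathway genes became 4 with dim probes left in, 3 when slide row was a block, 2 with both first replicates left out, and 5 to 9 with single arrays left out. The 21 called STAT3-responsive genes became 13 with both first replicates left out and 15 to 22 with single arrays left out. All called genes numbered 4012, and 2506 with median scaling (1580 higher, 926 lower), which moves the median difference from -0.10 to 0.01. They numbered 1636 with dim probes left in, 1033 when slide row was a block, 2283 with Xist signal as a covariate, 641 with both first replicates left out, and 1459 to 3387 with single arrays left out (2142 and 2084 without Nod1 +/- replicate 1 or 2, 1856 and 1459 without Nod1 -/- replicate 1 or 2). Il6ra, never called, turned to 0.0022 with normexp, 0.0722 with median scaling, 0.151 when slide row was a block, 0.0292 without Nod1 +/- replicate 1, 0.0693 without Nod1 -/- replicate 1 and 0.13 without both, and lay between -0.123 and 0.0693 with single arrays left out. The Lifr variant 2 probe lay at -0.52, against 0.36 for the probe used. All 5 receptor ratios kept their sign in each alternative run. Xist, which is expressed in female cells, was well above background on 2 of 3 Nod1 +/- and 1 of 3 Nod1 -/- arrays. The part of fetal sex was not tested beyond the Xist covariate. The causes of these shifts were not tested.

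Same-numbered arrays of the genotypes deviated together with r = 0.08, 0.28 and 0.11, so the numbers were not taken to pair the samples, and Nod1 +/- replicate 3 correlated best with Nod1 -/- replicate 1 (0.13). With the replicate block, 4040 genes were called, 4 members, 10 pathway genes and 19 STAT3-responsive genes. Il11ra1 (0.0657) and Lifr (0.0609) lost their calls under the block and no other member's call changed. Dim signal limits Lif, Osm, Il11 and, in Nod1 -/- vessels, Il6.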

Other observations

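The genes whose levels over the 6 arrays were most like those of the members with the smallest p were listed as a description, with no test, over arrays that all carry the same difference between genotypes. For Osmr the highest Pearson correlations among 21477 genes were with Tnfaip3 (r = 0.999), which encodes the ubiquitin-editing NF-kB inhibitor A20, Ptgs2 (0.998), which encodes the inducible prostaglandin synthase COX-2, and Baz1a (0.998), a chromatin-remodelling subunit. Ptgs2 read -1.97, -2.23 and -2.10 in Nod1 +/- and -4.19, -4.06 and -4.14 in Nod1 -/- vessels. In Tnfaip3 replicate 2 was the lowest of the Nod1 +/- arrays and the highest of the Nod1 -/- arrays, as in Osmr itself. That shared order follows from picking Tnfaip3 by its correlation with Osmr. The Nod1 -/- readings of Ptgs2 lay near the detection limit, so no order is read from them.

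For Il6 the highest correlations were with Il1r1 (r = 0.999), the signalling receptor for interleukin-1, C3 (0.998), the central complement component, and Gpr172b (0.998). Il1r1 read 3.32, 3.47 and 3.22 against 2.55, 2.66 and 2.48, a far smaller difference (0.77) than that of Il6 (3.96). Replicate 2 was the highest and replicate 3 the lowest in each genotype, as in Il6. That shared order follows from picking Il1r1 by its correlation with Il6, which was dim in Nod1 -/- vessels. C3 read 6.69, 7.22 and 6.70 against 4.63, 4.82 and 4.32.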
